A study of Rattus norvegicus with 22 samples.

Results

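Injured proximal tubule (iPT) cells are the proximal tubule cells that the study named from injury markers in single-nucleus RNA-Seq of whole rat kidney. The members described here are all nuclei that the deposited annotation names iPT, in every treatment. There were 16413 such nuclei among 310282 nuclei of 16 annotated cell types, and they came from all 22 libraries, with 57 to 2149 iPT nuclei per library.

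The proximal tubule reabsorbs most of the filtered salt, glucose and amino acids, first in its convoluted part (PCT) and then in its straight part (PST). When its epithelium is damaged, cells lose transport genes and switch on injury genes such as Havcr1, which encodes kidney injury molecule 1, and Vcam1, which encodes an adhesion molecule that binds leukocytes. Such cells can recover or persist, and persisting injured cells are known to make signals that act on macrophages, lymphocytes and fibroblasts. Gene values were not analysed here, so the name iPT was not checked against Havcr1 and Vcam1 and is taken as the authors gave it.

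The study treated Sprague-Dawley rats to model hypertension caused by mineralocorticoid excess. Control rats had a sham operation, oil injections and tap water. The rats of the DOCA group lost 1 kidney by uninephrectomy, received 50 mg/kg deoxycorticosterone acetate (DOCA) under the skin each week, drank salt water and were given vehicle by gavage. The finerenone and spironolactone groups had the same operation, DOCA and salt, with 10 mg/kg/d finerenone or 50 mg/kg/d spironolactone, which both block the mineralocorticoid receptor, in place of vehicle. The amiloride group received DOCA, salt and 20 mg/kg/d amiloride, which blocks the epithelial sodium channel. The study describes uninephrectomy for the model as a whole, although its methods name the operation for the other DOCA-treated groups only. There were 5 libraries each for control, DOCA, finerenone and spironolactone and 2 for amiloride. By the labels, which give this time as an age of adult kidney, the control and amiloride samples were all from 6 weeks, and each of the other groups had 4 samples from 6 weeks and 1 from 3 weeks. No library was assigned to a sample, so time points cannot be told apart here.

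Libraries held 759 to 48403 nuclei and are identified below by treatment and number of nuclei. The names of 11 libraries carry the word Old or New, 5 names mark the Multiome kit, and in the DOCA and drug groups the 6 libraries named New stood apart in several of the values given below. No control library is named New and both amiloride libraries are. In each treatment, the numbers of libraries without and with Old or New in the name equal those of 2 sets of samples that the processing notes set apart by the Cell Ranger version. All 3 samples from 3 weeks are in the set whose numbers equal those of the tagged libraries, but equal numbers assign no library, and a part of the time point in the name tag was not tested. The control libraries of 1238 and 14747 nuclei share a number in their names, as do the spironolactone libraries of 13610 and 33683 nuclei. The sources used here do not say whether these are the same animal, and averaging each pair took away no call but that of the myofibroblast rho given below. A barcode present in more than 1 library was carried by 19754 nuclei (6.37%), among them 1096 iPT nuclei (6.68% of iPT). The 2 nuclei of such a pair had the same cell type in 15.0% of 10166 pairs, where 15.5% would be expected from the makeup of the libraries.

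On the deposited UMAP, a map on which nuclei of similar expression lie close together and whose axes have no unit, iPT nuclei formed a single island. It held 16232 nuclei, or 98.9% of all iPT nuclei, next to the PCT and PST nuclei. A group of 45 iPT nuclei lay within the PCT region, and 30 of these came from the finerenone library of 13679 nuclei. A further 5 lay among type A intercalated cells and 131 were scattered.

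Along the first axis the iPT nuclei fell into 2 lobes, and those outside the island are counted with the lobe on whose side they lay, 173 with the near and 8 with the far lobe. The near lobe, on the PCT and PST side of a boundary at 5.5, held 10328 nuclei (62.9%) with a median position of 4.28 on the first and -4.01 on the second axis. The far lobe held 6085 nuclei (37.1%) with a median position of 6.71 and -5.07. The boundary was set after the map had been seen, at the emptiest bin between the lobes, and 363 iPT nuclei lay within 0.25 units of it. All 22 libraries had nuclei in both lobes, so neither lobe belonged to a single library or treatment. The lobes were defined from these positions, so differences between them are given as a description.

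**Figure D1:**
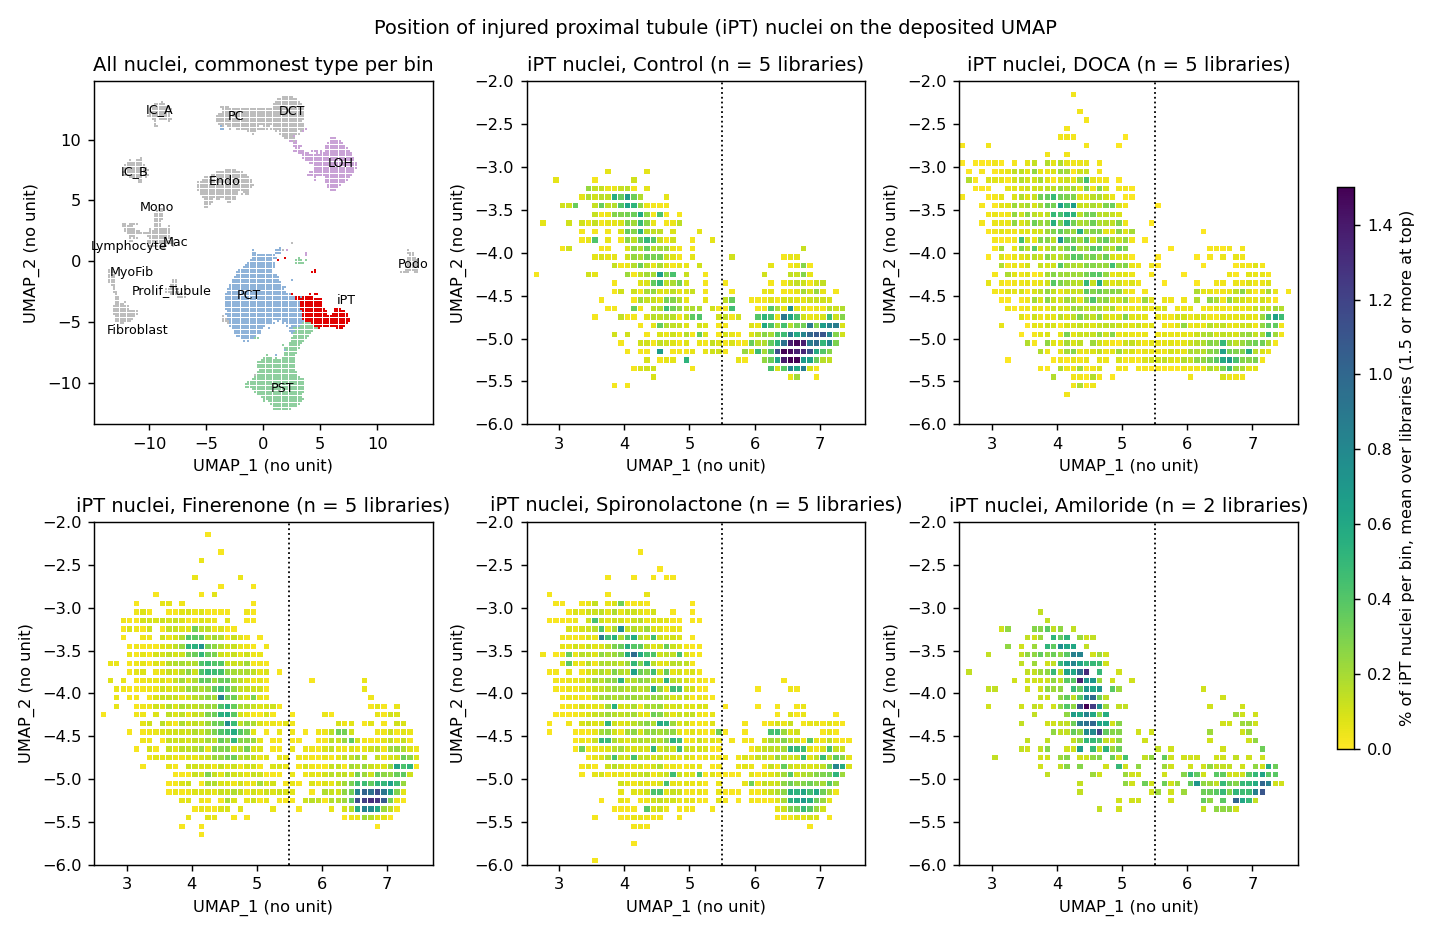
The first panel shows the deposited UMAP, with the commonest cell type of each bin in color, and the other panels show where the iPT nuclei of each treatment lay, as the percentage of a library's iPT nuclei per bin, averaged over libraries. Axes have no unit and the dotted line is the boundary at 5.5. Control nuclei are densest right of the line, in the far lobe, and DOCA nuclei are spread mostly over the near lobe left of it.

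The lobes differed in how closely other cell types approached them. Among the 30 nearest nuclei of any type, 91.8% were iPT for nuclei of the near lobe and 99.6% for nuclei of the far lobe. The median distance to the 30th nearest nucleus of another type was 0.472 units in the near lobe and 1.84 units in the far lobe. For the island alone these values were 93.1% and 99.6%, and 0.475 and 1.84 units. The median distance to the single nearest nucleus of another type was 0.102 units in the near lobe and 0.220 units in the far lobe. Thus the far lobe was nearly pure iPT, and nuclei of other types close to it were few.

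The comparison of control and DOCA asked where iPT nuclei lay in sham-operated rats and in rats with DOCA, uninephrectomy and salt. These parts of the model cannot be told apart here. Control iPT nuclei lay mostly in the far lobe and DOCA iPT nuclei mostly in the near lobe. In the 5 control libraries, by increasing size, the median position of iPT nuclei on the first axis was 6.46, 6.39, 6.35, 4.75 and 6.43. In the 5 DOCA libraries it was 4.34, 4.55, 4.33, 4.64 and 4.65. The groups did not overlap, although the highest DOCA library was only just below the control library of 14747 nuclei. The mean was 6.08 ± 0.745 (SD, n = 5) in control and 4.50 ± 0.158 (SD, n = 5) in DOCA, a difference of -1.57 (two-sided exact permutation test over libraries, p = 0.00794, the smallest this design allows, adjusted p = 0.0476 over 6 comparisons of position). The call was lost when the labels were permuted within libraries of the same name tag (exact permutation test, adjusted p = 0.1), without the Multiome libraries and without any of the 5 DOCA libraries (exact permutation tests, adjusted p = 0.0714 to 0.0952), while the difference remained between -1.94 and -1.53 in these. Permuting within name tags cannot go below p = 0.0167 and 4 against 4 libraries not below p = 0.0286, and the exact permutation p was at that limit in both. On the second axis DOCA iPT nuclei lay 0.546 units higher, which did not pass (exact permutation test, p = 0.0238, adjusted p = 0.0714, n = 5 and 5) unless the control libraries of the same number were averaged (0.584, exact permutation test, adjusted p = 0.0238).

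The share of iPT nuclei in the far lobe shows the same shift. By increasing library size it was 77.2%, 63.9%, 63.8%, 40.7% and 55.5% in control and 16.4%, 24.8%, 14.0%, 42.7% and 36.9% in DOCA. The lowest control library and the highest DOCA library overlapped. The exact 95% interval was 64.2% to 87.3% in the smallest control library, with 57 iPT nuclei, and 34.7% to 39.3% in the largest DOCA library, with 1733. The mean was 60.2% ± 13.4 (SD, n = 5) in control and 27.0% ± 12.6 (SD, n = 5) in DOCA. Within each lobe, positions on the first axis differed less. For the near lobe the mean of the library medians was 4.36 in control and 4.24 in DOCA. For the far lobe it was 6.63 and 6.80, and the groups overlapped in both lobes. The difference in median position thus largely restates which lobe held most of a library's iPT nuclei.

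The drug groups were compared with DOCA to ask whether treatment moved iPT nuclei on the map, and the same DOCA libraries served in each comparison. Under finerenone the share in the far lobe was 28.6%, 12.9%, 54.8%, 46.0% and 45.7% by increasing library size. Under spironolactone it was 16.4%, 30.3%, 23.6%, 25.5% and 53.8%, and with amiloride it was 34.8% and 23.6%. Most of these libraries fell within the DOCA range, and the exceptions were 3 finerenone libraries and the largest spironolactone library above it and a finerenone library just below it. The difference from DOCA in the median position on the first axis was 0.363 for finerenone (exact permutation test, adjusted p = 0.25, n = 5 and 5) and 0.329 for spironolactone (exact permutation test, adjusted p = 0.802, n = 5 and 5). On the second axis it was -0.253 for finerenone (exact permutation test, adjusted p = 0.25, n = 5 and 5) and -0.116 for spironolactone (exact permutation test, adjusted p = 0.752, n = 5 and 5). No shift of either drug group from DOCA passed the test, and both spironolactone values changed sign without the library of 33683 nuclei, to -0.0680 and 0.0374.

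**Figure D2:**
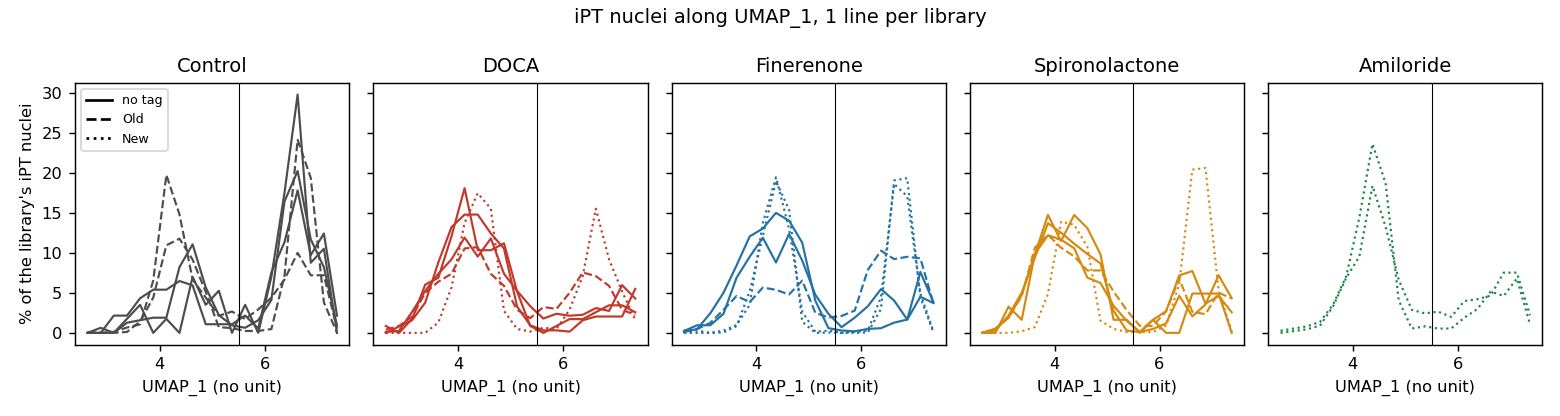
Each line is a library and gives the percentage of its iPT nuclei along the first UMAP axis (no unit), with 1 panel per treatment, and the line style gives the word in the library name. The vertical line is the boundary of the lobes at 5.5. Of the control libraries, 4 peak right of it, whereas 4 of the 5 DOCA libraries have most of their nuclei spread left of it and the New library has narrow peaks on both sides.

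The size of each lobe relative to all nuclei of the library shows which lobe carried the difference in iPT share. The near lobe made up 1.05%, 2.15%, 1.01%, 3.01% and 1.98% of the nuclei in the control libraries, by increasing size. It made up 5.47%, 7.59%, 6.26%, 2.66% and 7.21% in the DOCA libraries. Of the 5 DOCA libraries, 4 were above all control libraries, and the library of 13307 nuclei, which is named New, was within the control range. The far lobe made up 3.55%, 3.8%, 1.78%, 2.07% and 2.46% of the nuclei in control and 1.07%, 2.51%, 1.02%, 1.98% and 4.22% in DOCA. Hence the groups overlapped for the far lobe, with a mean of 2.73% ± 0.900 (SD, n = 5) in control and 2.16% ± 1.31 (SD, n = 5) in DOCA, and the means of the near lobe were 1.84% ± 0.836 (SD, n = 5) and 5.84% ± 1.96 (SD, n = 5).

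Both lobes together gave iPT shares of 4.60%, 5.95%, 2.79%, 5.08% and 4.44% of all nuclei in the control libraries and of 6.54%, 10.1%, 7.29%, 4.64% and 11.4% in the DOCA libraries. Of the DOCA libraries, 4 were above every control library. The difference in means was 3.43 percentage points (exact permutation test, p = 0.0238, n = 5 and 5) and did not pass after adjustment over 4 comparisons (exact permutation test, adjusted p = 0.0952, n = 5 and 5). Without the libraries named New it was 4.26 points (exact permutation test, adjusted p = 0.0238 over 3 comparisons, n = 4 and 5). That subset was chosen after these shares had been seen and leaves out the only DOCA library within the control range. Its p-value is therefore no separate support. The difference was 3.53 points among untagged and 3.28 points among tagged libraries. As nuclei are counted as shares, more iPT nuclei and fewer nuclei of other types cannot be told apart. Among proximal tubule nuclei only, the difference was 5.66 points (exact permutation test, adjusted p = 0.317, n = 5 and 5), and the DOCA libraries ranged from 9.17% to 26.4% and the control libraries from 5.18% to 15.6%.

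Under finerenone the iPT shares were 6.40%, 10.9%, 7.60%, 5.34% and 1.48% by increasing library size, and the last 2 libraries are named New. Under spironolactone they were 8.04%, 11.5%, 7.44%, 6.18% and 2.92%, and the last is named New. The amiloride libraries, both named New, had 4.43% and 3.30%, below all DOCA libraries. The exact 95% interval was 6.20% to 10.2% in the spironolactone library of 759 nuclei and 1.37% to 1.59% in the finerenone library of 48403 nuclei. The difference from DOCA was -1.65 points for finerenone (exact permutation test, adjusted p = 0.603, n = 5 and 5) and -0.779 points for spironolactone (exact permutation test, adjusted p = 0.675, n = 5 and 5). For amiloride it was -4.13 points (exact permutation test, p = 0.0952, adjusted p = 0.190, n = 2 and 5), in a design that can reach no p below 0.0476. Without the libraries named New, the finerenone and spironolactone differences were -0.527 and -0.543 points.

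**Figure D3:**
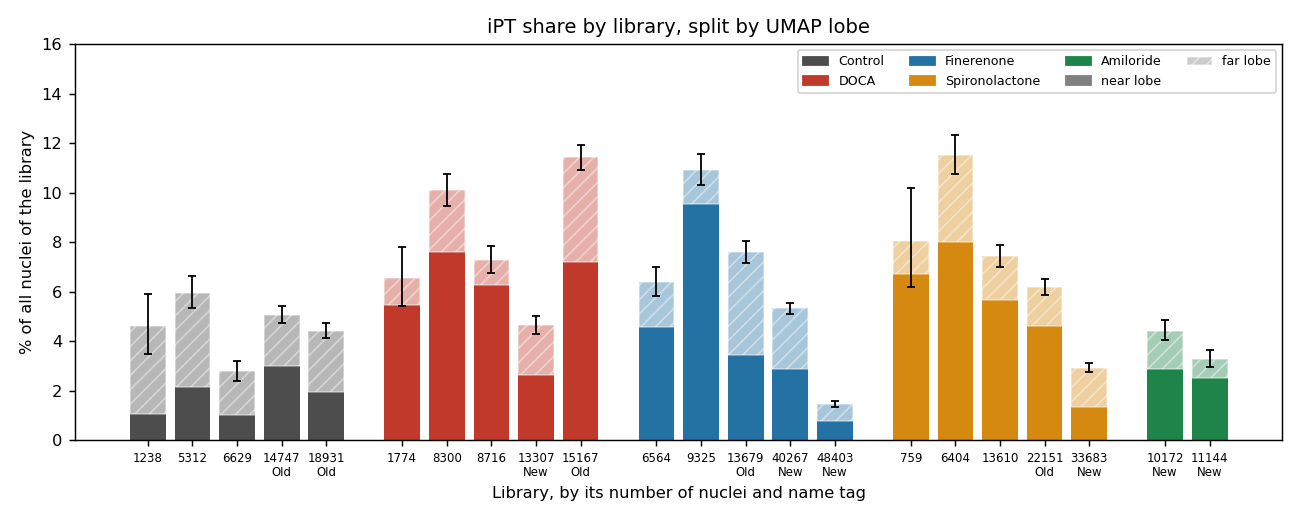
Bars give the iPT nuclei of each library as a percentage of all its nuclei, with the near lobe solid and the far lobe hatched, and error bars are exact 95% intervals of the whole share that cover counting error only. In control the far lobe is the larger part in 4 of 5 libraries, and the near lobe is the larger part in all DOCA libraries.

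Across the DOCA and drug groups, the word New in the library name went with the size and the shape of the near lobe. The 6 libraries named New had iPT shares of 1.48% to 5.34%, and the other 11 had 6.18% to 11.5%, without overlap. The near lobe held 0.802% to 2.89% of nuclei in the former and 3.44% to 9.52% in the latter. It was also narrower: the SD of its nuclei across its long direction was 0.180 to 0.314 units in libraries named New and 0.428 to 0.531 units in the others. The control libraries, none of which is named New, had an SD of 0.224 to 0.370. This split was noticed in the data and is not tested, and the word is not explained in the sources used here. Of the 6 libraries, the 4 that are not amiloride had iPT shares of 4.64% (DOCA), 5.34% and 1.48% (finerenone) and 2.92% (spironolactone). Both amiloride libraries carry the word, so a difference of amiloride cannot be told apart from it. Its part in the other differences between groups was not tested beyond leaving these libraries out.

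The cell types around iPT nuclei were described by the 30 nearest nuclei of other types, compared with the makeup of all nuclei that are not iPT. Proximal tubule cells led this list. PCT nuclei made up 37.8% of these neighbors and 32.4% of other nuclei, and PST nuclei 29.9% of neighbors and 20.7% of other nuclei, with more PST neighbors than expected in 21 of 22 libraries. Cells of the loop of Henle (LOH), which concentrates the urine, made up 18.2% against 13.1%. The PCT and LOH shares each exceeded the expected share in 15 of 22 libraries. These shares depended on how neighbors were sought. With 759 nuclei drawn from each library, LOH made up 3.38% to 8.19% of neighbors per library, PST 34.9% to 76.1% and PCT 15.4% to 60.1%. Proliferating tubule nuclei were a small part of the neighbors, 3.21%, but only 0.818% of other nuclei, and exceeded that share in 22 of 22 libraries. The other tubule and vascular types were rare beside iPT nuclei, with 1.87% endothelial neighbors against 7.56% of other nuclei, 1.24% principal cells against 5.22% and 0.674% distal convoluted tubule cells against 6.11%, below the expected share in 22 of 22 libraries for each. Neighbors were sought among the pooled nuclei of all libraries. The same neighbor nuclei can thus serve many libraries, and these counts of libraries are not independent agreement.

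Macrophages, the phagocytes of the kidney interstitium, made up 2.98% of the neighbors and 2.15% of other nuclei. Fibroblasts made up 2.82% against 2.63%, and myofibroblasts, the contractile matrix-producing cells, 1.17% against 0.980%. Lymphocytes made up 0.00650% against 1.02%, and no monocyte was among the neighbors. Macrophages and fibroblasts had larger shares beside the far lobe, 6.38% and 6.49% of neighbors, than beside the near lobe, 0.971% and 0.658%. Few nuclei supplied most of these neighbors, as given below. Myofibroblasts were 3.11% of neighbors beside the far lobe and only 0.0184% beside the near lobe.

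The neighbors of the lobes differed in kind and in number. Beside the near lobe, 50.1% were PCT, 40.8% PST and 4.01% LOH, and 5800 different nuclei supplied all neighbors. Of these, 2521 were neighbors of nuclei within the island, for which the shares were 50.0% PCT, 41.3% PST and 3.94% LOH. Beside the far lobe, 42.2% were LOH, 17.0% PCT and 11.4% PST, but only 133 different nuclei supplied all neighbors (67 for the island alone), 46 of them LOH nuclei that supplied 76949 of the 182550 neighbor places. The main body of LOH nuclei lay far away on the second axis, with a median of 8.03 against -5.07 for the far lobe. Shares of neighbors beside the far lobe thus describe a few stray nuclei, and this applies to the macrophage and fibroblast neighbors as well, which were 2 different nuclei each. It also applies to proliferating tubule cells, which made up 6.72% of the neighbors beside the far lobe, supplied by 3 nuclei. Beside the near lobe they made up 1.13%, supplied by 33 nuclei. Near-lobe shares of these types rested on few nuclei as well. Within the island, 10 proliferating tubule nuclei supplied 3480 of the 3515 near-lobe places of their type. For LOH, 12 nuclei supplied 12012 of 12436 places. For macrophages, 1 nucleus supplied 2890 of 3010, and for fibroblasts 5 nuclei supplied 1955 of 2038.

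From the other side, few nuclei bordered on iPT nuclei. Among PCT nuclei, 3.66% had any iPT nucleus among their 30 nearest nuclei, and among PST nuclei 1.59% did. The values were 1.45% for macrophages, 1.37% for proliferating tubule cells and 0.958% for fibroblasts. Nuclei with a majority of iPT neighbors numbered 329 of 95279 PCT nuclei and 202 of 60833 PST nuclei. No other type had more than 17 such nuclei, which were LOH nuclei.

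By treatment, among the 30 nearest neighbors from all nuclei, PST and PCT were more common and LOH less common in DOCA than in control. The order for PST depended on this setting. The PST share of neighbors was 21.9%, 27.2%, 20.0%, 28.4% and 25.2% in the control libraries by increasing size, and 34.0%, 33.2%, 31.8%, 30.6% and 30.03% in the DOCA libraries. All DOCA libraries were above all control libraries. The means were 24.6% ± 3.54 (SD, n = 5) and 31.9% ± 1.68 (SD, n = 5), a difference of 7.37 points (exact permutation test, p = 0.00794, the smallest this design allows, adjusted p = 0.0317 over 4 comparisons). However, the direction turned with the definition of neighbors, to -10.8 points with 100 neighbors and to -19.5 points when 759 nuclei were drawn from each library, the size of the smallest (exact permutation tests, adjusted p = 0.0635 for both). Within the near lobe alone the PST share was 46.4% ± 9.81 (SD, n = 5) in control and 39.5% ± 3.58 (SD, n = 5) in DOCA, the opposite order, with overlapping libraries. Beside this, fewer of the DOCA iPT nuclei lay in the far lobe, where only 11.4% of neighbors were PST.

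The PCT share of neighbors was 28.8% ± 6.17 (SD, n = 5) in control and 42.3% ± 6.34 (SD, n = 5) in DOCA, and the LOH share 27.0% ± 5.11 (SD, n = 5) and 14.1% ± 4.77 (SD, n = 5). In each case 1 DOCA library, the one of 13307 nuclei, overlapped with control. Within the near lobe the LOH share was 3.75% ± 0.852 (SD, n = 5) in control and 4.07% ± 0.732 (SD, n = 5) in DOCA. Most near-lobe LOH neighbors were the same 12 nuclei.

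With the drugs, the PST share of neighbors was 36.9%, 37.0%, 24.8%, 29.7% and 29.2% with finerenone, by increasing library size, 31.3%, 27.8%, 30.3%, 29.7% and 25.9% with spironolactone, and 33.5% and 38.9% with amiloride. The difference from DOCA was -0.412 points for finerenone (exact permutation test, adjusted p = 0.873, n = 5 and 5), -2.93 points for spironolactone (exact permutation test, p = 0.0476, adjusted p = 0.0952, n = 5 and 5) and 4.26 points for amiloride (exact permutation test, adjusted p = 0.127, n = 2 and 5). None passed the test, and the finerenone difference reversed without any of 4 single libraries.

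**Figure D4:**
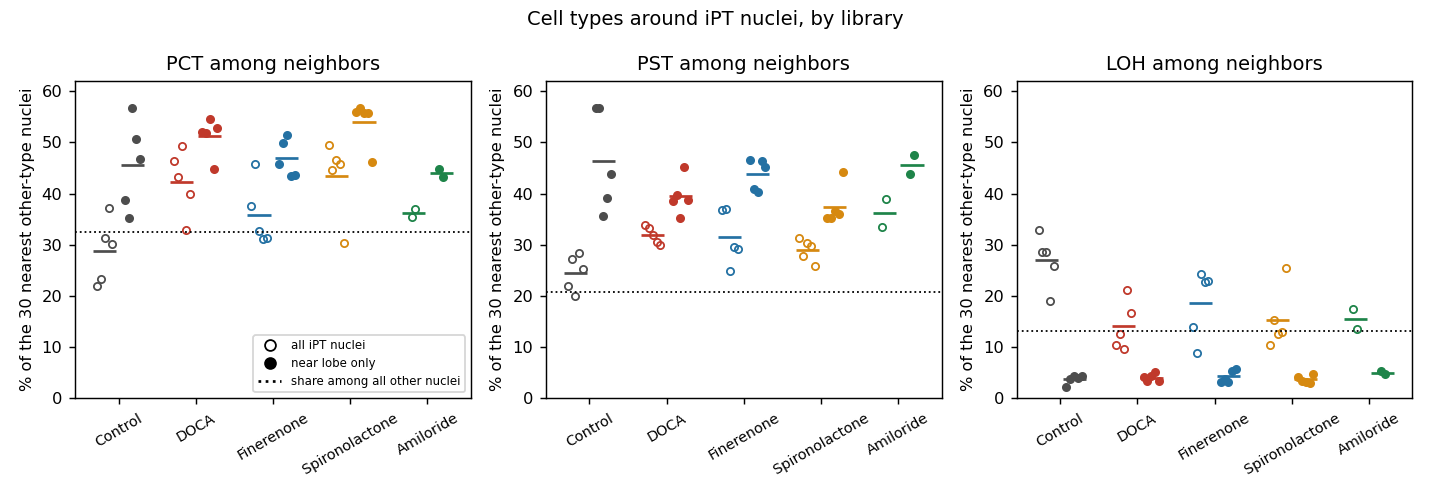
Each point is a library and gives the PCT, PST or LOH share of the 30 nearest other-type neighbors of its iPT nuclei (% of neighbors), for all iPT nuclei (open) or those of the near lobe (filled), with short lines for the mean of each treatment and a dotted line for the share among all nuclei that are not iPT. Control libraries have the lowest PST and highest LOH mean over all iPT nuclei, but in the near lobe their PST mean is above that of DOCA. In the near lobe the LOH points lie between 2.31% and 5.77%, with a median of 4.05% over 22 libraries, and rest mostly on 12 LOH nuclei.

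The iPT share of each library was set beside the shares of macrophages, lymphocytes, fibroblasts and myofibroblasts, cell types that infiltrate or expand in fibrosis. Libraries with more iPT nuclei had more macrophages and more lymphocytes. The macrophage share was 0.740% to 2.77% (median 1.10%) in control, 1.17% to 5.75% (median 4.08%) in DOCA, 0.310% to 6.52% (median 1.66%) with finerenone and 0.941% to 6.43% (median 4.61%) with spironolactone. With amiloride it was 0.836% and 1.5%. Over the 22 libraries Pearson's r with the iPT share was 0.867 and Spearman's rho 0.890 (permutation test, p = 1e-05 for each, the smallest 100000 permutations can give, adjusted p = 2e-05 over 4 cell types). Without the 2 libraries farthest from the median iPT share, r was 0.825.

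The lymphocyte share was 0.242% to 0.631% (median 0.338%) in control, 0.639% to 2.24% (median 1.68%) in DOCA, 0.157% to 2.98% (median 0.909%) with finerenone and 0.4928% to 3.37% (median 2.37%) with spironolactone, and 0.285% and 0.781% in the amiloride libraries. All DOCA libraries were above all control libraries, the lowest only just. Pearson's r with the iPT share was 0.858 and rho 0.874 (permutation test, adjusted p = 2e-05 for each, n = 22), and r was 0.823 without the 2 farthest libraries.

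Both relations held with r between 0.819 and 0.886 within treatments and within untagged and tagged libraries. For deviations from the treatment means, r was 0.819 for macrophages and 0.851 for lymphocytes (permuted within treatment, permutation test, adjusted p = 0.000740 for each, n = 22). Among the 11 untagged libraries r was 0.852 and 0.877 (permutation test, adjusted p = 0.00200 and 0.00140), and among the 11 tagged ones 0.886 and 0.847 (permutation test, adjusted p = 0.00684 for each). Shares of a library sum to a whole, so the relation was also computed with iPT as a share of proximal tubule nuclei and the immune types as shares of all other nuclei. Then r fell to 0.580 for macrophages and 0.550 for lymphocytes (permutation test, adjusted p = 0.0153 for each, n = 22). The 6 libraries named New lay at the low end of both axes, with macrophage shares of 0.310% to 1.66%, and without them r was 0.820 and 0.839 (permutation test, adjusted p = 0.000320 and 0.000240, n = 16).

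For fibroblasts, the resident matrix-producing cells, shares ranged from 0.655% to 4.68% and the relation did not pass over all libraries, with r = 0.189 (permutation test, adjusted p = 0.400, n = 22). It differed between subsets. Among the 11 tagged libraries rho was 0.709 (permutation test, adjusted p = 0.0244) and r 0.447 (permutation test, adjusted p = 0.226), whereas rho was -0.500 and r -0.367 among the 11 untagged ones (permutation test, adjusted p = 0.120 and 0.262), and r was -0.166 without the libraries named New. The myofibroblast share ranged from 0.161% to 2.59%. Its r with the iPT share was -0.321 (permutation test, adjusted p = 0.190, n = 22) and its rho -0.452 (permutation test, adjusted p = 0.0480, n = 22). The 3 highest myofibroblast shares, 2.59%, 1.86% and 1.74%, were in libraries named New, and rho was -0.341 without these libraries (permutation test, adjusted p = 0.261, n = 16). It was -0.552 with the separate denominators (permutation test, adjusted p = 0.0124, n = 22), -0.522 without the Multiome libraries (permutation test, adjusted p = 0.0448, n = 17), -0.405 with the libraries of the same number averaged (permutation test, adjusted p = 0.103, n = 20) and 0.127 among the tagged libraries (permutation test, adjusted p = 0.712, n = 11). The group means of the myofibroblast share were 0.529% ± 0.178 (SD, n = 5) in control and 0.687% ± 0.672 (SD, n = 5) in DOCA.

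**Figure D5:**
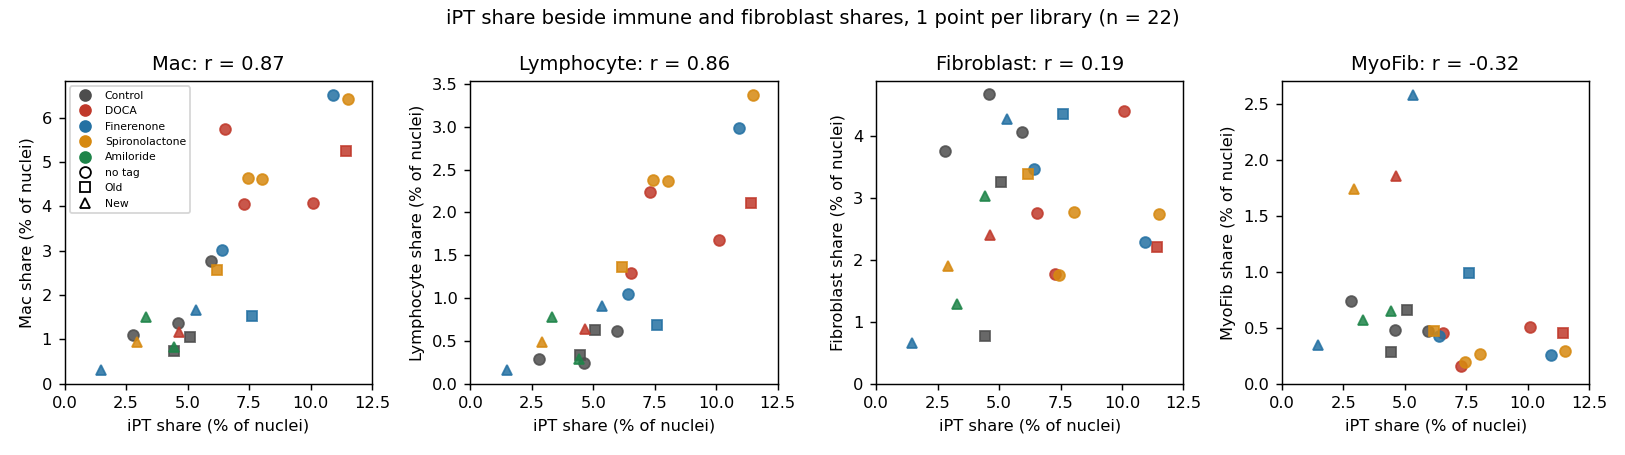
Each point is a library, with its iPT share on the horizontal axis and its share of macrophages, lymphocytes, fibroblasts or myofibroblasts on the vertical axis (% of nuclei), colored by treatment and shaped by the word in its name. Macrophage and lymphocyte shares rise with the iPT share (r = 0.867 and 0.858), and the fibroblast and myofibroblast shares have r = 0.189 and -0.321.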

How the data were processed

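In the deposited annotation the library, treatment and type of a nucleus are names, and its position on the UMAP is a score without a unit. The authors aligned reads to rn6 with Cell Ranger (3.0.2 and 6.0.1 in the submitters' processing notes), took out ambient RNA (SoupX) and doublets (DoubletFinder), filtered and merged nuclei in Seurat, corrected for batch with Harmony and named clusters from markers. Coordinates and annotation were joined by barcode here. Neighbors were found with scikit-learn 1.9.0, and values were computed with Python 3.11.15, numpy 2.4.6, pandas 2.3.3 and scipy 1.17.1 and plotted with matplotlib 3.10.9. Each library gave 1 value and was grouped by the treatment in the annotation. No library was assigned to a sample, although their number per treatment equals that in the labels, and p-values measure only the spread between libraries. Differences of means were tested by two-sided exact permutation over libraries, with Benjamini-Hochberg adjustment (4 comparisons for each share, 6 for position) and a threshold of 0.05. Correlations used 100000 permutations. Intervals are Clopper-Pearson and cover counting error only. Islands were joined grid squares of 0.5 units with at least 5 iPT nuclei. The code was tested on simulated data. The cell type, comparisons and lists were chosen with earlier results of these data known, and the lobe boundary, the separation by the word New and, for positions, the subsets by kit, name tag and number of iPT nuclei, and the averaging of libraries of the same number were chosen after seeing the values. By rule no gene was tested or named for a value. Alternatives were other numbers and sources of neighbors, other denominators, means for medians, and subsets of libraries.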

Additional observations from a re-analysis of the deposited data

Results flagged for a closer look

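In groups of 5 libraries, 32 sets of values were examined for a library far from the others, and 6 were found, where chance gives about 1 in 20. The median position of iPT nuclei on the first axis was 4.75 in the control library of 14747 nuclei, against 6.35 to 6.46 in the other control libraries, and its median on the second axis was -4.47, against -4.98 to -4.86. On the first axis the finerenone library of 13679 nuclei was at 5.98, against 4.38 to 4.70 in the others of its group, and the spironolactone library of 33683 nuclei was at 6.42, against 4.39 to 4.47. In each of these first-axis cases the median lay across the lobe boundary at 5.5 from the rest of its group. The far lobe held 40.7%, 54.8% and 53.8% of iPT nuclei in these libraries, in that order. Another finerenone library, whose median stayed in the near lobe, had 46.0%. The myofibroblast share was 1.86% in the DOCA library of 13307 nuclei, against 0.161% to 0.506% in the other DOCA libraries, and 1.74% in the spironolactone library of 33683 nuclei, against 0.198% to 0.470%.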

How the results depend on the processing

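Differences are in percentage points for shares and in map units for positions, adjusted p-values are from exact permutation tests over libraries, and the cause of each change was not tested unless stated. The iPT share stayed higher in DOCA than in control in all alternatives, at 2.57 (without the DOCA library of 15167 nuclei) to 4.26 over single libraries left out. It passed without the DOCA library of 13307 nuclei, which lay within the control range (exact, adjusted p = 0.0317). It also passed without all libraries named New, which include that library (4.26, exact, adjusted p = 0.0238). For spironolactone against DOCA it reversed to 0.336 without the Multiome libraries and to 1.02 within untagged libraries, with -1.85 to 0.295 over single libraries left out, above 0 without the DOCA library of 15167 or the spironolactone library of 33683 nuclei. For finerenone it reversed to 0.689 within untagged libraries. The share of PST neighbors in DOCA against control reversed to -10.8 with 100 neighbors and to -19.5 with equal numbers of nuclei per library, lost its call at 7.68 with neighbors from other libraries (exact, adjusted p = 0.0952) and at 8.80 without the Multiome libraries (exact, adjusted p = 0.114, where 4 against 4 libraries cannot go below p = 0.0286), and was 3.49 within tagged libraries. Over single libraries left out it was 6.23 to 8.33, and the call was lost without any of the 5 DOCA libraries. For finerenone this share reversed to 5.70 with 100 neighbors, 7.58 with equal numbers of nuclei, 0.792 without the Multiome libraries, 0.628 without those named New and 3.93 within untagged libraries, was -2.40 within tagged ones, and was -1.78 to 1.26 over single libraries left out. It turned without the DOCA library of 1774 or the finerenone libraries of 13679, 40267 or 48403 nuclei. For spironolactone it was 0.419 with equal numbers of nuclei and passed at -2.93 when labels were permuted within name tags (exact, adjusted p = 0.0333). The first-axis shift in DOCA lost its call at -1.94 without the Multiome libraries (exact, adjusted p = 0.0857), at -1.61 without those named New (exact, adjusted p = 0.0714) and at -1.57 within name tags (exact, adjusted p = 0.1, where p cannot go below 0.0167), and was -1.90 to -1.47 over single libraries left out. The second-axis shift passed at 0.381 with means (exact, adjusted p = 0.0476), at 0.584 with the libraries of the same number and treatment averaged (exact, adjusted p = 0.0238), a choice made after seeing the data that changed no other call of a difference or of r, and without the control library of 14747 nuclei (0.635, exact, adjusted p = 0.0238), was 0.781 within untagged and 0.194 within tagged libraries, and was 0.471 to 0.635 over single libraries left out. First-axis differences from DOCA within untagged libraries were 0.0846 for finerenone and 0.0146 for spironolactone, which was 0.802 within tagged libraries, -0.0340 without those named New, and -0.0680 to 0.440 over single libraries left out. Its second-axis range was -0.230 to 0.0374. The fibroblast correlation reversed to -0.166 without libraries named New and to -0.367 within untagged libraries. No paired analysis was possible because the library names carry no replicate number of the labels. Of the 16 numbers in the names, 4 occur in more than 1 treatment, which pairs no treatments. Counting error was small beside the spread between libraries, except in small libraries such as those with 57, 61 and 116 iPT nuclei. In the last of these the exact 95% interval of the iPT share was 5.43% to 7.79%. For the share in the far lobe, the interval was also wide in the library with 185 iPT nuclei, 56.4% to 70.7%.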

Other observations

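The libraries did not mix fully within the iPT nuclei of the map. Of the 30 nearest iPT nuclei, 12.1% came from the same library, while full mixing would give 6.71%, a ratio of 1.81. Among neighbors from other libraries, control iPT nuclei lay next to iPT nuclei of other control libraries 1.33 times as often as under full mixing, with a ratio above 1 in 5 of 5 libraries. For DOCA the same ratio was 1.04 (above 1 in 4 of 5 libraries), for finerenone 0.870 (1 of 5), for spironolactone 1.03 (4 of 5) and for amiloride 1.23 (2 of 2). These values describe the map after the authors' batch correction.

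Other cell types inside the lobes were few. Of the nuclei of other types with a majority of iPT among their 30 nearest, 327 PCT nuclei of 20 libraries and 200 PST nuclei of 18 libraries lay on the side of the near lobe, and 13 LOH nuclei of 6 libraries on that of the far lobe.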
